A study of Homo sapiens with 18 samples.

Results

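The 10 genes described here, NAMPT, NAPRT, NMNAT1, NMNAT3, NADSYN1, QPRT, NMRK1, NNMT, SIRT1 and NADK, encode enzymes of nicotinamide adenine dinucleotide (NAD) metabolism. They were taken by gene symbol from the 62749 genes of the series, whatever their level. The cells were MDA-MB-231, an established line of mesenchymal-like, triple-negative breast cancer, and poly-A RNA was read in 18 libraries that form 6 groups of 3. These groups were KO cells (IMPDH2 knocked out) grown with 400 µM guanosine, KO cells carrying a reintroduced IMPDH2 without a localisation tag in its label (unlocalised IMPDH2), KO cells carrying a nuclear IMPDH2, KO cells carrying a cytosolic IMPDH2, KO cells without addition, and unedited cells (WT). All but the first group grew without added guanosine, and all but WT derive from the knockout. The labels do not say whether the knockout is 1 clone or a pool, nor whether replicate libraries are separate cultures. The p-values therefore measure the spread between these libraries, which may be technical.

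NAD is built by several routes that meet at a shared last step. NAMPT turns nicotinamide into nicotinamide mononucleotide, NMRK1 reaches the same product from nicotinamide riboside, and NAPRT and QPRT make the nicotinic acid mononucleotide from nicotinic acid and from quinolinate. NMNAT enzymes join these mononucleotides to an adenylyl group, NMNAT1 in the nucleus and NMNAT3 in mitochondria, and NADSYN1 amidates the nicotinic acid form to NAD. NADK phosphorylates NAD to NADP, SIRT1 is a deacetylase that splits NAD, and NNMT methylates nicotinamide and so draws it away from salvage. IMPDH2, the enzyme removed in the knockout, oxidises inosine monophosphate with NAD as the electron acceptor on the way to guanine nucleotides.

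NADK and NMNAT1 were both lower in every knockout-derived group than in WT, together with their chromosome 1 neighbours, and their promoters are shown for that reason. RefSeq (GRCh38.p14) holds promoter windows for 7 of the 10 genes, all but NAPRT, NMRK1 and NNMT. Below are the 250 bases before 2 of the 3 NADK starts and before the NMNAT1 start, read 5′ to 3′ on the gene's strand. The window of the NADK start farthest upstream (chr1:1780032-1780281, minus strand) held 1 GC-box match at a GC content of 46.8% and is not printed. Capitals mark matches on either strand to the E-box CACGTG, to the GC box GGGCGG, to the CCAAT box or to the TATA box TATAAA.
NADK, nearer upstream start, chr1:1778817-1779066, minus strand: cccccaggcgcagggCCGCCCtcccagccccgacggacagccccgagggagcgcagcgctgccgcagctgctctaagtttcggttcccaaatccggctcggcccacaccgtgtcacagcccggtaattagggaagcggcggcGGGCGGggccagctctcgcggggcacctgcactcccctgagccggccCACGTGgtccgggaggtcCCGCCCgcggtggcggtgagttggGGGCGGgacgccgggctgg
NADK, internal start, chr1:1758643-1758892, minus strand: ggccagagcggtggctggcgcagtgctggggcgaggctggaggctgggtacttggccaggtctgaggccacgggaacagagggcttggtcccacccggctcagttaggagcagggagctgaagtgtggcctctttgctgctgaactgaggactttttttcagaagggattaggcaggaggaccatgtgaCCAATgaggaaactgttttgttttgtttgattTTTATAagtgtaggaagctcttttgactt
NMNAT1, chr1:9943225-9943474, plus strand: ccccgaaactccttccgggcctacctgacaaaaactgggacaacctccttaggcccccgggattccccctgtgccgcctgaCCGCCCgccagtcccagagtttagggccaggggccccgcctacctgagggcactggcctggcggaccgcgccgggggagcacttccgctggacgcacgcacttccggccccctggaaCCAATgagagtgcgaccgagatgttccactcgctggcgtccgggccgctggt
The nearer upstream NADK window held 1 E-box match and 4 GC-box matches, and its GC content was 75.2%. The internal NADK window held 1 CCAAT match and 1 TATA match at a GC content of 54.0%. The NMNAT1 window held 1 GC-box match and 1 CCAAT match at a GC content of 68.8%. No 2 of these matches overlapped. Of 35116 RefSeq promoter windows of the same length, 6.3% held the E-box letters, 42.6% the GC box, 32.0% the CCAAT box and 10.7% the TATA box. Of the NADK estimated counts, transcripts that begin well upstream of the internal start took 89.6% ± 2.24 in KO and 89.9% ± 2.46 in WT (SD, n = 3 each). Any starts nearer to the internal one were counted with it. The upstream share was between 89.8% and 93.8% in the other groups, and no test was made of it.

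The genes lie on 8 chromosomes (GRCh38 positions of GENCODE 29). NADK (chr1:1751232-1780457, minus strand) and NMNAT1 (chr1:9943428-9985501, plus strand) share chromosome 1. NADSYN1 (chr11:71453109-71524107, plus strand) and NNMT (chr11:114257787-114313285, plus strand) share chromosome 11. NAMPT lies at chr7:106248285-106286326 on the minus strand. The remaining genes are NAPRT (chr8:143574785-143578649, minus strand), NMNAT3 (chr3:139560180-139678017, minus strand), QPRT (chr16:29679008-29698699, plus strand), NMRK1 (chr9:75060573-75088217, minus strand) and SIRT1 (chr10:67884669-67918390, plus strand). NAMPT, NAPRT, NMNAT3 and NNMT overlap an antisense gene on the other strand, and the library kits were stranded per the labels. QPRT overlaps a second coding gene on its own strand. NMNAT1, NMNAT3 and NADSYN1 overlap noncoding genes or pseudogenes on theirs. Reads may have been shared where genes overlap on the same strand.

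Estimated counts totalled 45865079 to 63276484 per library. IMPDH2 itself stood at 41.2 to 42.3 CPM in KO, which was 13.1% of WT, and at 22.0 to 22.2 CPM in KO with guanosine. It reached 522 to 543 CPM in unlocalised, 283 to 305 CPM in nuclear and 371 to 395 CPM in cytosolic IMPDH2 cells, and 318 to 320 CPM in WT. VIM, a mesenchymal marker, was at 1992 to 2884 TPM in all libraries, while ESR1, PGR and CDH1 were at or below 0.398 TPM. ERBB2 (15.9 to 27.4 TPM) and EPCAM (7.65 to 14.8 TPM) were above 0. Over the blood and endothelial markers the summed level was 0.839 to 0.979 TPM in KO and 1.85 to 2.28 TPM in WT, most of it PECAM1. Mitochondrially encoded genes took 7.25% to 8.21% of counts in the knockout-derived libraries and 5.15% to 5.21% in WT. The part of these differences in the results below was not tested. In bulk RNA, fewer cells of a kind and less RNA per cell cannot be told apart.

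Per length, the salvage enzyme gene NAMPT was the most abundant of the 10 in every group, and QPRT the least. TPM (transcripts scaled for length and depth), summed over a gene's transcripts, compare levels between genes. NAMPT averaged 224 ± 2.44 TPM in KO and 290 ± 5.44 TPM in WT. NADK averaged 16.7 ± 2.74 TPM in KO and 48.5 ± 9.55 TPM in WT, so it ranked behind NADSYN1 (37.1 ± 3.09 TPM) and SIRT1 (25.5 ± 2.74 TPM) in KO but ahead of both in WT (30.0 ± 2.09 TPM for NADSYN1 and 20.3 ± 3.29 TPM for SIRT1). NAPRT averaged 8.71 ± 0.633 TPM in KO and 17.4 ± 0.942 TPM in WT. NMRK1 averaged 5.12 ± 0.318 TPM in KO and 2.86 ± 0.386 TPM in WT. NNMT averaged 3.39 ± 1.19 TPM in KO and 13.9 ± 3.78 TPM in WT. Of those among the 10 that add the adenylyl group, NMNAT1 averaged 2.20 ± 0.293 TPM in KO and 7.65 ± 0.484 TPM in WT, and NMNAT3 averaged 0.988 ± 0.307 TPM in KO and 0.127 ± 0.0520 TPM in WT (SD, n = 3 each). NMNAT1 libraries thus stood above NMNAT3 libraries in both groups, but the gap between the 2 genes was far smaller in KO. NMNAT2, an adenylyltransferase gene outside the 10, averaged 9.39 ± 0.659 TPM in KO and 7.96 ± 1.36 TPM in WT.

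**Figure D1:**
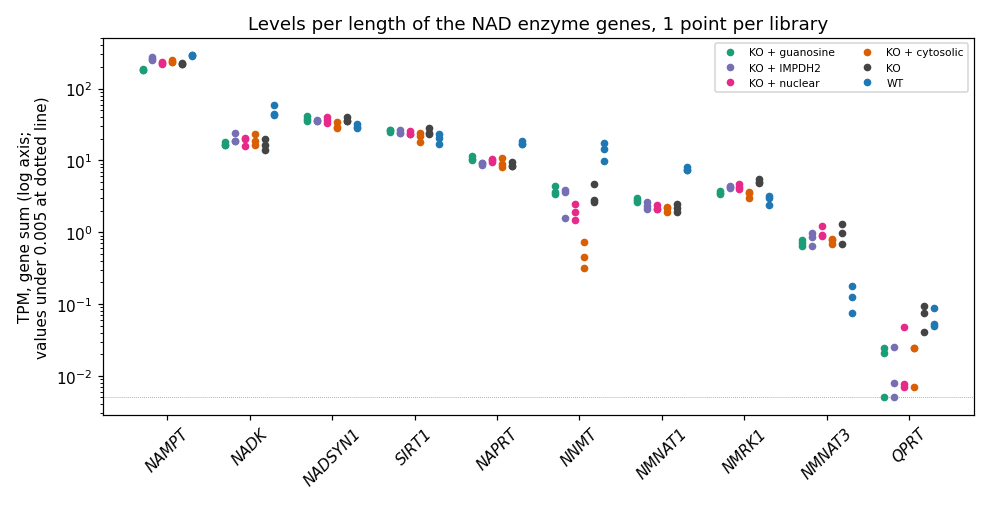
Level of each gene in TPM on a log axis, 1 point per library, with the groups in the order of the legend. NAMPT lies between 180 and 294 TPM in all 18 libraries, while NNMT spans 0.316 TPM in a cytosolic IMPDH2 library to 17.4 TPM in a WT library.

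QPRT, the quinolinate enzyme gene, was scarcely detected and failed the filter on low counts, so it was not tested with all 18 libraries in the filtered fit. Its counts were 12, 8 and 6 in KO and 11, 5 and 6 in WT. The other 4 groups held 0 to 6 counts per library. Transcripts annotated as protein coding averaged 88.9% of QPRT counts in WT, 21.7% in KO and 11.1% with cytosolic IMPDH2. They took none of the QPRT counts with guanosine, unlocalised IMPDH2 or nuclear IMPDH2. The near-equal totals in KO and WT thus do not show equal coding levels. These shares rest on few counts, and no test was made of them. A count of 0 in 1 guanosine library allows up to 0.064 CPM, and a count of 0 in 1 unlocalised IMPDH2 library allows up to 0.054 CPM (3 counts of the library total, counting error only). With the filter removed, its fitted log2 fold change was -2.07 with guanosine (adjusted p = 0.0401, edgeR) and -2.51 with unlocalised IMPDH2 (adjusted p = 0.0137) against KO. Against WT it was -2.01 with guanosine (adjusted p = 0.0465) and -2.44 with unlocalised IMPDH2 (adjusted p = 0.0142), and in KO against WT it was 0.07 (adjusted p = 1). The nuclear and cytosolic values missed the threshold (-1.56, adjusted p = 0.132, and -1.73, adjusted p = 0.0914, against KO, and -1.49, adjusted p = 0.137, and -1.67, adjusted p = 0.0895, against WT). The calls rest on at most 12 counts in a library and turn on single libraries in the fits with 1 left out in which QPRT passed the filter. Against KO, the guanosine call was lost without guanosine replicate 1 (-1.56, adjusted p = 0.143) or 3 (-2.27, adjusted p = 0.0733) or KO replicate 2 (-2.11, adjusted p = 0.0717), and the unlocalised call without its replicate 1 (-1.98, adjusted p = 0.085) or 3 (-2.39, adjusted p = 0.0668). Against WT, the guanosine call was lost without guanosine replicate 1 (adjusted p = 0.154) or 3 (0.0783) or WT replicate 2 (0.0526) or 3 (0.0636), and the unlocalised call without its replicate 1 (0.0823) or 3 (0.0637). Without nuclear replicate 3, the nuclear value passed against KO (-2.96, adjusted p = 0.0181) and WT (-2.88, adjusted p = 0.0175). The other 9 genes passed the filter and were tested.

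The knockout was compared with WT to ask what the loss of IMPDH2 goes with, and here the enzyme genes split. NMNAT1, NADK, NAPRT, NNMT and, by a small margin, NAMPT were lower in KO. NMNAT3, NMRK1, SIRT1 and NADSYN1 were higher. All 9 tested genes passed the test (edgeR quasi-likelihood, Benjamini-Hochberg adjusted p under 0.05), 4 higher and 5 lower. Of all 19252 genes tested, 72.7% passed in this comparison, 35.9% higher and 36.8% lower, so a high share of calls is the background here. The median size of the log2 fold change was 0.98 over the 9 genes and 0.49 over all genes tested. Values within a gene are given in CPM, counts over TMM-adjusted library totals, and each fold change is a log2 value ± SE.

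Among the genes of the last steps, NMNAT1 had 5.03, 4.34 and 4.02 CPM in KO, against 15.2, 14.8 and 14.8 CPM in WT. It fell 3.35-fold (-1.74 ± 0.09, adjusted p = 3.64e-12, edgeR). NADK had 33.7, 33.4 and 36.0 CPM in KO, against 78.9, 78.5 and 78.3 CPM in WT. It fell 2.28-fold (-1.19 ± 0.04, adjusted p = 1.84e-15). For both genes the 3 libraries of each group sat close together and far from the other group. NMNAT3, the mitochondrial adenylyltransferase gene, had 1.99, 2.71 and 1.95 CPM in KO, against 0.282, 0.509 and 0.800 CPM in WT. It rose 4.18-fold (2.07 ± 0.24, adjusted p = 3.87e-07), from counts of 15 to 148 per library over all groups, and its WT libraries spread widely. With the offset for average transcript length its log2 fold change was 2.94. NADSYN1 had 63.2, 65.0 and 64.2 CPM in KO, against 52.4, 53.0 and 49.8 CPM in WT, a rise of 1.24-fold (0.31 ± 0.04, adjusted p = 4.74e-07).

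Among the entry enzymes, NAPRT had 9.97, 10.9 and 11.0 CPM in KO, against 22.8, 20.4 and 19.8 CPM in WT. It fell 1.97-fold (-0.98 ± 0.08, adjusted p = 2.95e-09). NMRK1, the riboside kinase gene, had 3.27, 3.54 and 3.09 CPM in KO, against 2.20, 2.37 and 2.04 CPM in WT, a rise of 1.5-fold (0.58 ± 0.10, adjusted p = 3.55e-05). NAMPT had 390.1, 404 and 381 CPM in KO, against 442, 455 and 468 CPM in WT. It fell only 1.16-fold (-0.22 ± 0.03, adjusted p = 1.04e-05), and this fall depends on which transcripts are counted. With transcripts annotated as protein coding alone its log2 fold change was 0.09 (adjusted p = 0.0833, edgeR).

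NNMT, which acts on nicotinamide and not on NAD, had 3.59, 2.97 and 3.02 CPM in KO, against 9.62, 9.84 and 11.2 CPM in WT. It fell 3.20-fold (-1.68 ± 0.13, adjusted p = 1.21e-09). SIRT1 had 53.1, 50.4 and 48.8 CPM in KO, against 38.8, 41.7 and 42.0 CPM in WT, a rise of 1.24-fold (0.32 ± 0.04, adjusted p = 2.92e-06). Scaling by TMM instead of library totals shifted the all-gene median by -0.158 on the log2 scale, and each of the 9 differences was larger than that shift.

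**Figure D2:**
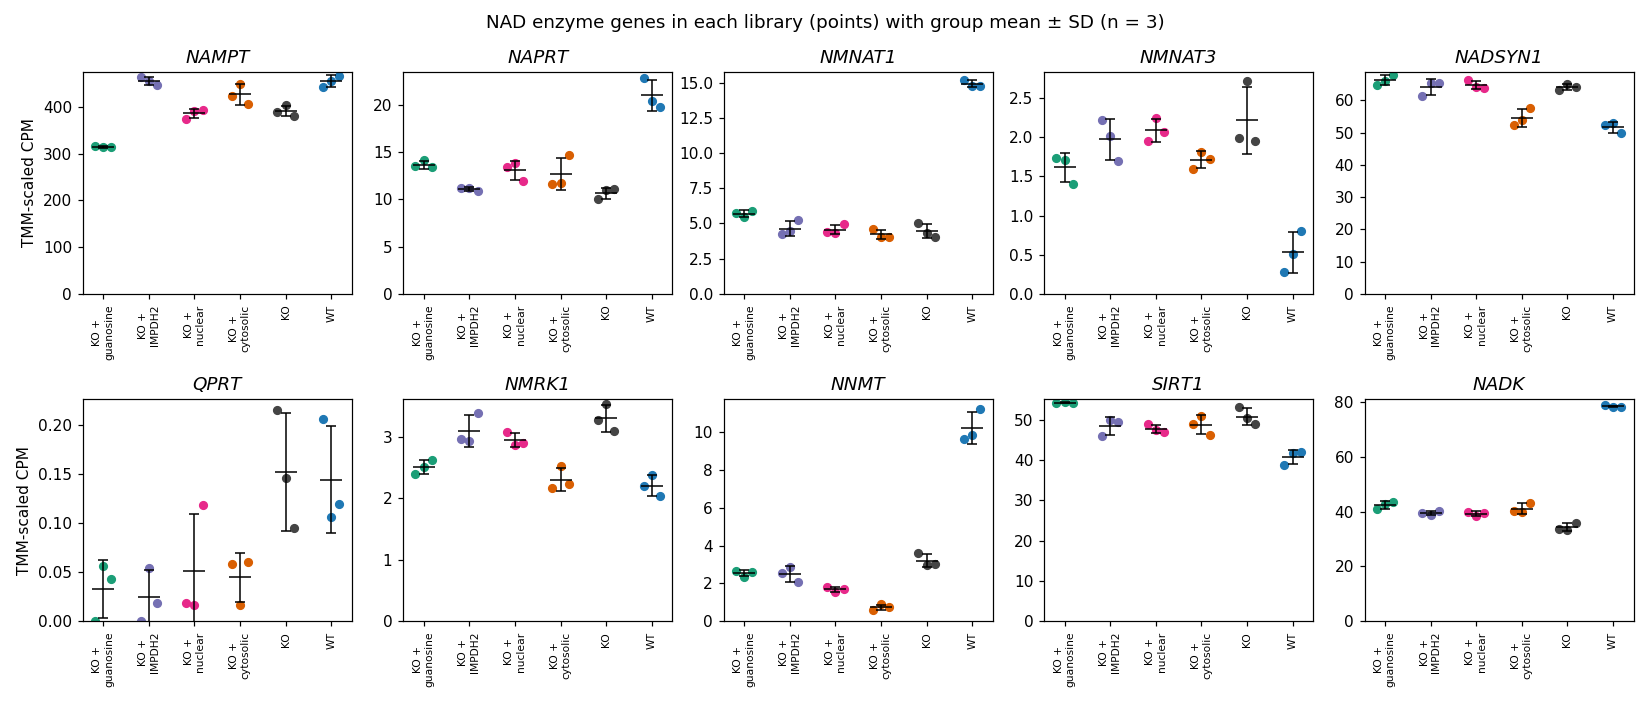
TMM-scaled CPM of the 10 genes in each library (points), with the group mean and SD (bars, n = 3 libraries), each panel with its own axis from 0. NADK, NMNAT1, NAPRT and NNMT stand lower in every knockout-derived group than in WT, and NNMT is lowest in cytosolic IMPDH2 cells at 0.585 to 0.882 CPM.

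Guanosine, which can feed guanine nucleotide salvage without IMPDH2, was compared in KO cells with KO cells left without it. It went with less NAMPT, NMRK1 and, near the threshold, NNMT, and with more NADK, NAPRT and NMNAT1. This made 6 calls in the 9 genes, 3 higher and 3 lower, where 56.5% of all genes passed (27.3% higher, 29.2% lower). NAMPT had 317, 315 and 314 CPM with guanosine, against 390.1, 404 and 381 CPM in KO. It fell 1.24-fold (-0.31 ± 0.03, adjusted p = 2.28e-07, edgeR) to its lowest level in the series, and the 3 guanosine libraries were nearly equal. NADK had 41.0, 43.0 and 43.5 CPM with guanosine, against 33.7, 33.4 and 36.0 CPM in KO, a rise of 1.24-fold (0.31 ± 0.04, adjusted p = 1.19e-06). It stayed at 54.1% of the WT level.

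NAPRT averaged 13.7 ± 0.422 CPM with guanosine and 10.6 ± 0.589 CPM in KO, a rise of 1.28-fold (adjusted p = 0.0011, edgeR). NMNAT1 averaged 5.70 ± 0.226 CPM with guanosine and 4.46 ± 0.515 CPM in KO, a rise of 1.28-fold (adjusted p = 0.00321). NMRK1 averaged 2.51 ± 0.115 CPM with guanosine and 3.30 ± 0.227 CPM in KO, a fall of 1.31-fold (adjusted p = 0.00224). The groups did not overlap for these 3 genes, but neither did they for SIRT1 and NMNAT3, which were not called. The share of all genes without overlap is not given here. From coding transcripts alone the NAPRT and NMNAT1 values were 0.38 (adjusted p = 0.207) and 0.43 (adjusted p = 0.0614), and without the low-count filter the NMRK1 value was -0.38 (adjusted p = 0.0538). For NNMT the mean was 2.53 ± 0.169 CPM with guanosine and 3.20 ± 0.346 CPM in KO, and the fall was near the threshold (-0.34 ± 0.13, adjusted p = 0.0419). Without KO replicate 1 the NNMT log2 fold change was -0.24 (adjusted p = 0.194), and without guanosine replicate 1, 2 or 3 it was -0.38, -0.28 or -0.35 (adjusted p = 0.0503, 0.14 and 0.0679). The NNMT fall also missed the threshold with DESeq2 size factors (adjusted p = 0.0546) and with the DESeq2 Wald test (adjusted p = 0.0634). Without the low-count filter its adjusted p was 0.0851. From coding transcripts alone the NNMT log2 fold change was -1.02 (adjusted p = 0.00368). With an offset for average transcript length it turned to 0.18 (adjusted p = 0.705), and with that offset the NADK value was 0.04 (adjusted p = 0.875). SIRT1 was at 0.10 ± 0.04 (adjusted p = 0.0655), and it passed without KO replicate 1 (0.14, adjusted p = 0.0188), with DESeq2 size factors (0.0346), without the low-count filter (0.0249), with the 6 compared libraries alone (0.019) and with the DESeq2 Wald test (0.032). NADSYN1 (0.05 ± 0.04) and NMNAT3 (-0.45 ± 0.22) did not pass, though NMNAT3 did with the 6 compared libraries alone (-0.44, adjusted p = 0.0438).

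The 3 reconstituted lines were each compared with KO, to ask whether IMPDH2 in either compartment goes with a change in these genes. The 3 comparisons and the guanosine comparison share the KO libraries. NADK rose and NNMT fell in each of the 3, NAPRT rose with nuclear and with cytosolic IMPDH2, and NAMPT rose with unlocalised and with cytosolic IMPDH2. NMNAT1, NMNAT3 and SIRT1 passed in none of the 3, but from coding transcripts alone SIRT1 passed as lower with unlocalised (-0.11, adjusted p = 0.0275) and nuclear IMPDH2 (-0.12, adjusted p = 0.0115). Unlocalised IMPDH2 gave 3 calls in the 9 genes, 2 higher and 1 lower, where 50.8% of all genes passed (25.7% higher, 25.1% lower). Nuclear IMPDH2 gave 3 calls, 2 higher and 1 lower, where 53.0% of all genes passed (26.1% higher, 26.9% lower). Cytosolic IMPDH2 gave 6 calls, 3 higher and 3 lower, where 50.6% of all genes passed (24.6% higher, 26.0% lower). With the length offset the numbers of calls were 1, 1 and 3, and the NADK rise passed in none of the 3. The NADK values with that offset were 0.32, 0.22 and 0.27 (adjusted p = 0.128, 0.302 and 0.2, edgeR), in the same order. They were no smaller than the main values given below, and it was the adjusted p that rose.

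NADK had 39.5, 38.8 and 40.2 CPM with unlocalised IMPDH2, 40.1, 38.3 and 39.6 CPM with nuclear IMPDH2, and 40.1, 40.1 and 43.4 CPM with cytosolic IMPDH2, against 33.7, 33.4 and 36.0 CPM in KO. Every reconstituted library lay above every KO library. The log2 fold changes were 0.20 ± 0.04 (adjusted p = 1.78e-04), 0.19 ± 0.04 (adjusted p = 2.13e-04) and 0.26 ± 0.04 (adjusted p = 1.01e-05, edgeR) in that order. With guanosine the same gene reached 42.5 ± 1.31 CPM, so all 4 additions left it between 50.1% and 54.1% of WT, where KO stood at 43.8%.

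NNMT, the nicotinamide methyltransferase gene, moved further from WT, not back towards it. It had 2.54, 2.88 and 2.07 CPM with unlocalised IMPDH2, 1.81, 1.54 and 1.68 CPM with nuclear IMPDH2, and 0.585, 0.882 and 0.723 CPM with cytosolic IMPDH2, against 3.59, 2.97 and 3.02 CPM in KO. The 3 reconstituted groups did not overlap each other or KO. The fall from the KO level was 4.34-fold with cytosolic IMPDH2 (-2.12 ± 0.15, adjusted p = 2.16e-09, edgeR) and 1.91-fold with nuclear IMPDH2 (-0.93 ± 0.14, adjusted p = 1.6e-05). With unlocalised IMPDH2 it was 1.28-fold (-0.36 ± 0.13, adjusted p = 0.0343). The unlocalised value was -0.26 without KO replicate 1 (adjusted p = 0.168), -0.37 without its own replicate 1 (adjusted p = 0.061) and -0.24 without its own replicate 3 (adjusted p = 0.168). It also missed the threshold without the low-count filter (adjusted p = 0.0751) and with the 6 compared libraries alone (0.0637). From coding transcripts alone the unlocalised value was -0.57 (adjusted p = 0.0782). With the length offset the nuclear value was -0.75 (adjusted p = 0.106) and the unlocalised value -0.14 (adjusted p = 0.799), while the cytosolic value was -2.74.

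NAMPT had 465, 455 and 448 CPM with unlocalised IMPDH2, against 390.1, 404 and 381 CPM in KO, a rise of 1.17-fold (0.22 ± 0.03, adjusted p = 1.94e-05, edgeR). Its cytosolic libraries had 424, 450.3 and 407 CPM, a rise of 1.09-fold over KO (0.13 ± 0.03, adjusted p = 0.00372). The nuclear libraries had 375, 392 and 393 CPM and overlapped KO (-0.02 ± 0.03, adjusted p = 0.674). Among coding transcripts alone the unlocalised and cytosolic values were 0.07 (adjusted p = 0.239) and 0.02 (adjusted p = 0.749), and the nuclear value was -0.20 (adjusted p = 0.00179).

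NAPRT averaged 13.1 ± 1.01 CPM with nuclear IMPDH2 and 10.6 ± 0.589 CPM in KO, a rise of 1.23-fold (0.30 ± 0.08, adjusted p = 0.00522, edgeR). With cytosolic IMPDH2 it averaged 12.7 ± 1.71 CPM (0.25 ± 0.08, adjusted p = 0.0175), a mean that 1 library at 14.6 CPM raised above the others at 11.6 and 11.8 CPM. Without that library the value was 0.13 (adjusted p = 0.15), and without KO replicate 1 it was 0.22 (adjusted p = 0.0638). From coding transcripts alone the NAPRT value was 0.50 with nuclear (adjusted p = 0.099) and -0.22 with cytosolic IMPDH2 (adjusted p = 0.501). Coding transcripts held between 22.6% and 54.6% of NAPRT counts in single libraries. Cytosolic IMPDH2 cells also had less NADSYN1, 54.7 ± 2.76 CPM against 64.1 ± 0.952 CPM in KO (-0.23 ± 0.04, adjusted p = 3.69e-05). They had less NMRK1, 2.30 ± 0.188 CPM against 3.30 ± 0.227 CPM in KO (-0.52 ± 0.10, adjusted p = 2.33e-04). Neither gene passed with nuclear or unlocalised IMPDH2, and with the length offset the cytosolic NADSYN1 value was -0.22 (adjusted p = 0.0566).

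**Figure D3:**
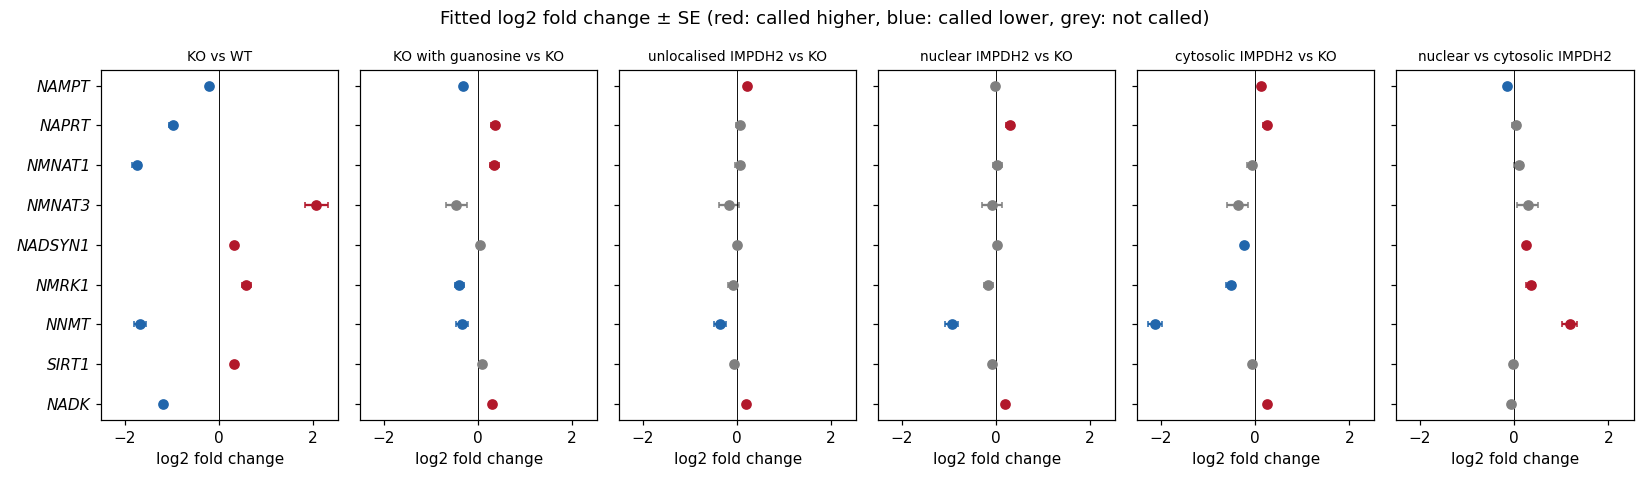
Fitted log2 fold change ± SE of the 9 tested genes in the 6 main comparisons, the first-named group over the second, with called genes in red (higher) or blue (lower) and others in grey. The KO against WT panel holds the widest spread, from -1.74 for NMNAT1 to 2.07 for NMNAT3, and NNMT is the outlying gene in the cytosolic panel at -2.12.

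Nuclear and cytosolic IMPDH2 cells were then set against each other, which compares the 2 lines directly. NNMT, NADSYN1 and NMRK1 were higher and NAMPT lower with nuclear IMPDH2, 4 calls in 9 genes where 23.9% of all genes passed (13.4% higher, 10.5% lower). NNMT had 1.81, 1.54 and 1.68 CPM in nuclear, against 0.585, 0.882 and 0.723 CPM in cytosolic IMPDH2 cells, 2.27-fold higher (1.18 ± 0.16, adjusted p = 2.44e-05, edgeR). From coding transcripts alone that value was 0.53 (adjusted p = 0.2), and with the length offset it was 2.0. NAPRT differed by 0.05 ± 0.08 and did not pass, but from coding transcripts alone it was higher in nuclear IMPDH2 cells (0.72, adjusted p = 0.0469). NADSYN1 had 66.3, 64.3 and 63.9 CPM in nuclear, against 52.4, 53.9 and 57.7 CPM in cytosolic IMPDH2 cells (0.25 ± 0.04, adjusted p = 8.07e-05). NAMPT had 375, 392 and 393 CPM in nuclear, against 424, 450.3 and 407 CPM in cytosolic IMPDH2 cells (-0.14 ± 0.03, adjusted p = 0.0037). NMRK1 averaged 2.95 ± 0.111 CPM in nuclear and 2.30 ± 0.188 CPM in cytosolic IMPDH2 cells (0.35 ± 0.10, adjusted p = 0.0134). It was 0.32 without nuclear replicate 1 (adjusted p = 0.0552) and 0.31 without cytosolic replicate 1 (adjusted p = 0.0593). It also missed the threshold without the low-count filter (adjusted p = 0.144), with coding transcripts alone (0.0754), with the 6 compared libraries alone (0.052) and with the DESeq2 Wald test (0.0502). NADK differed by -0.07 ± 0.04 and SIRT1 by -0.03 ± 0.04, neither past the threshold. With the length offset only the NNMT call was made of these 4. IMPDH2 itself was 1.27-fold lower in the nuclear cells, so the 2 lines differ in its level as well as its place. Its level and its place cannot be told apart here.

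Against WT, the 4 added conditions left NMNAT1, NADK, NAPRT and NNMT lower and NMNAT3 and SIRT1 higher. All these comparisons share the WT libraries. NMNAT1 stood at 28.4% to 38.2% of WT, NADK at 50.1% to 54.1%, NAPRT at 52.8% to 65.1% and NNMT at 7.1% to 24.8% across the 4 conditions, and each of these 16 differences passed as lower. NMNAT3 stood at 305% to 395% of WT and SIRT1 at 117% to 133%, each passing as higher in all 4. KO with guanosine gave 8 calls in the 9 genes, 3 higher and 5 lower, where 63.9% of all genes passed (31.1% higher, 32.9% lower), and NMRK1 did not pass (0.19 ± 0.10, adjusted p = 0.114, edgeR), except with the length offset (0.32, adjusted p = 0.0303). Unlocalised IMPDH2 gave 8 calls, 4 higher and 4 lower, where 64.5% of all genes passed (31.1% higher, 33.4% lower), and NAMPT averaged 456 ± 8.67 CPM with it and 455 ± 12.7 CPM in WT (0.00 ± 0.03, adjusted p = 0.921). That NAMPT value was 0.16 from coding transcripts alone (adjusted p = 0.00608), and with the length offset it was -0.12 (adjusted p = 0.0343). Nuclear IMPDH2 gave 9 calls, 4 higher and 5 lower, where 65.0% of all genes passed (31.5% higher, 33.6% lower), of which NAMPT missed the threshold with coding transcripts alone (-0.11, adjusted p = 0.0509). Cytosolic IMPDH2 gave 7 calls, 2 higher and 5 lower, where 67.6% of all genes passed (32.9% higher, 34.7% lower), and neither NADSYN1 (0.08 ± 0.04, adjusted p = 0.0667) nor NMRK1 (0.07 ± 0.10, adjusted p = 0.578) passed. NADSYN1 did pass as higher with coding transcripts alone (0.24, adjusted p = 5.56e-05), with DESeq2 size factors (0.0429), with the DESeq2 Wald test (0.0492), without the filter (0.0325) and without WT replicate 1 (0.0416) or cytosolic replicate 1 or 2 (0.0089 and 0.0384). NMRK1 passed with the length offset (0.30, adjusted p = 0.0423). NAMPT averaged 427 ± 21.7 CPM with cytosolic IMPDH2, and its small fall against WT (-0.09 ± 0.03, adjusted p = 0.0208), with overlapping libraries, missed the threshold without WT replicate 3 (-0.06, adjusted p = 0.191) or cytosolic replicate 1 or 3 (-0.07 and -0.04, adjusted p = 0.128 and 0.283). From coding transcripts alone NAPRT did not pass with guanosine (-0.28, adjusted p = 0.336) or nuclear IMPDH2 (-0.15, adjusted p = 0.605), and with the length offset SIRT1 did not pass with the 3 forms of IMPDH2 (adjusted p = 0.0533 to 0.347). NNMT in cytosolic IMPDH2 cells was 13.9-fold lower than in WT (-3.79 ± 0.15, adjusted p = 1.37e-13), a log2 value that was -2.89 from coding transcripts alone and -4.80 with the length offset. That offset also moved NMNAT3 against WT to between 2.48 and 3.02 in the 4 conditions, and NADK with guanosine to -1.51.

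Guanosine and reintroduced unlocalised IMPDH2, as 2 ways to supply guanine nucleotides, differed in NAMPT. It had 317, 315 and 314 CPM with guanosine, against 465, 455 and 448 CPM with unlocalised IMPDH2, 1.45-fold lower with guanosine (-0.54 ± 0.03, adjusted p = 1.09e-09, edgeR). NMRK1 was lower too, and NAPRT, NMNAT1, SIRT1 and NADK were higher with guanosine, at log2 fold changes of 0.11 to 0.30, so 6 of the 9 genes passed, 4 higher and 2 lower, where 37.6% of all genes did (18.6% higher, 18.9% lower). The NAPRT value was 0.70 from coding transcripts alone. With the length offset only the NAMPT call was made of these 6. NMNAT1 (0.30 ± 0.09, adjusted p = 0.017), NMRK1 (-0.30 ± 0.10, adjusted p = 0.0224) and NADK (0.11 ± 0.04, adjusted p = 0.0299) each missed the threshold when any of several single libraries was left out. NMNAT1 did so without guanosine replicate 3 (adjusted p = 0.0606) or unlocalised replicate 1 or 2 (0.0896 and 0.0677). NMRK1 did so without guanosine replicate 1 or 2 (0.0801 and 0.0563) or unlocalised replicate 3 (0.113), and NADK without guanosine replicate 2 or 3 (0.0995 and 0.123) or unlocalised replicate 1 or 2 (0.0733 and 0.114). With all libraries, NMRK1 also missed it without the low-count filter (0.199), with coding transcripts alone (0.101) and with the DESeq2 Wald test (0.0852). So did NMNAT1 with coding transcripts alone (0.278) and NADK without the filter (0.0882).

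The mix of NAMPT transcripts differed between KO and WT, a description with no test. Transcripts annotated as protein coding took 67.3%, 66.2% and 66.1% of NAMPT counts in KO, against 54.4%, 57.7% and 58.1% in WT, with no overlap. NAMPT-242, a coding transcript, averaged 40.6% of the counts in KO and 31.3% in WT, and NAMPT-222, annotated for nonsense-mediated decay, averaged 3.5% in KO and 10.3% in WT. In the other 4 groups the coding share averaged 59.9% to 62.3%, between KO and WT. Such shares rest on the division of shared reads among transcripts by Salmon.

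**Figure D4:**
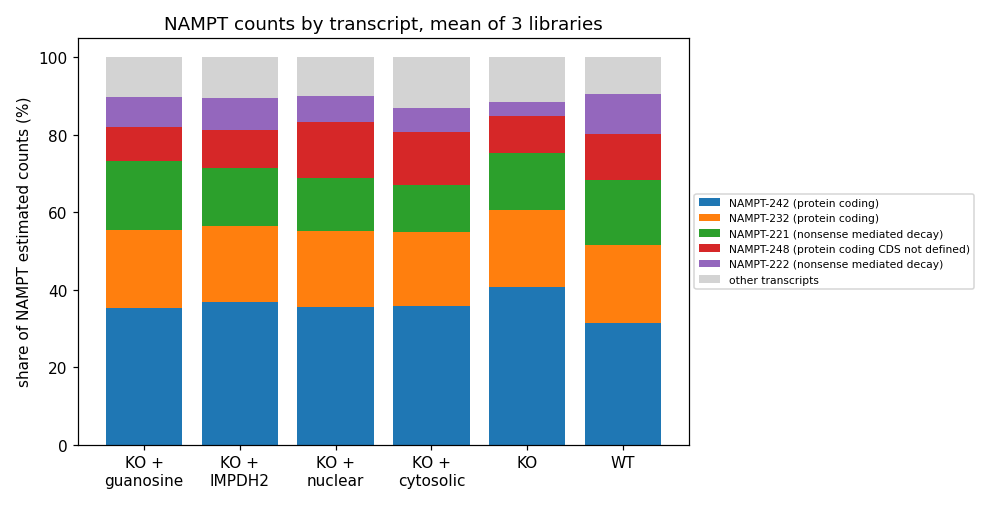
Share of the NAMPT estimated counts by transcript, mean of 3 libraries per group, for transcripts that reach 10% in any group. NAMPT-242 is widest in KO at 40.6% and narrowest in WT at 31.3%.

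NADK and NMNAT1 were lower in KO together with most genes around them. Of the 50 tested coding genes nearest to NMNAT1, 25 on each side, 47 were called lower in KO than in WT, with a median log2 fold change of -1.10 beside -1.74 for NMNAT1 itself, and 4 of the 50 were below it. Of the 50 nearest to NADK, 42 were called lower, with a median of -1.06 beside -1.19 for NADK, and 18 were below it. In the 4 other comparisons with WT these medians were -1.09 to -1.12 around NMNAT1 and -0.99 to -1.05 around NADK. Against KO, guanosine and the 3 forms of IMPDH2 gave medians of -0.03 to 0.03 around NMNAT1 and 0.02 to 0.11 around NADK. The neighbours of the other 8 genes had medians between -0.19 and 0.09 in KO against WT, and NNMT, NAPRT and NMNAT3, at -1.68, -0.98 and 2.07, lay far from their neighbours' medians of -0.10, -0.16 and -0.01. The part of the region in the NADK and NMNAT1 values was not tested.

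**Figure D5:**
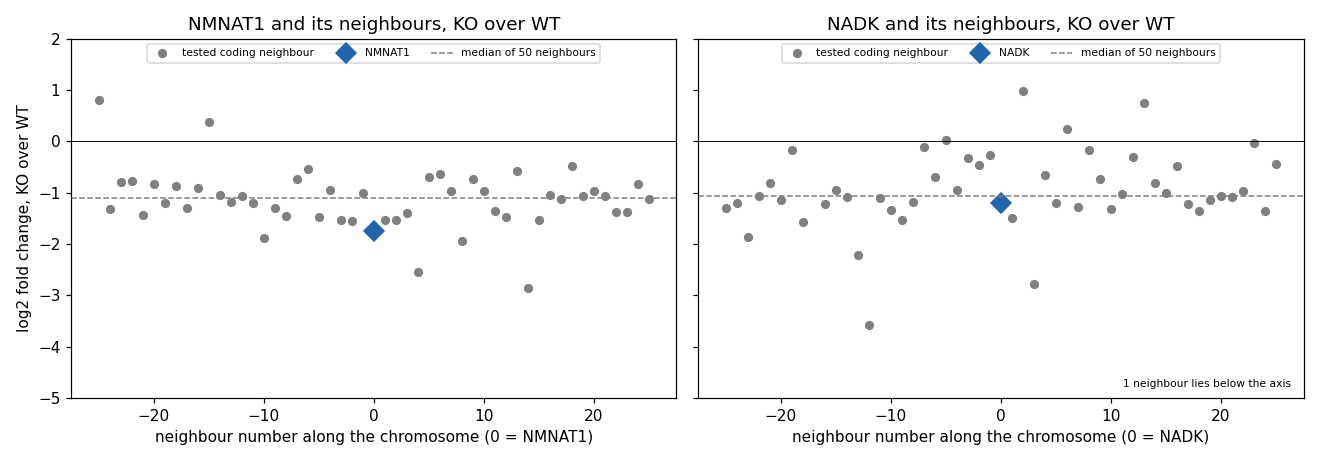
Log2 fold change of KO over WT for NMNAT1 (left) and NADK (right), as diamonds, and for the 25 tested coding genes on each side, as grey points in chromosome order, with the median of the 50 neighbours dashed. Most neighbours lie near the medians of -1.10 and -1.06, and 1 NADK neighbour lies below the axis.

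By root-mean-square difference between mean-centred log2 CPM profiles over the 18 libraries, among 2688 coding genes that vary, the 3 genes most like NADK were VAPA (0.058), HP1BP3 (0.060) and AURKAIP1 (0.061). HP1BP3 and AURKAIP1 lie on chromosome 1, as NADK does, and VAPA on chromosome 18. NMNAT1 was most like ENO1 (0.116), also on chromosome 1, then P4HA2 (0.123) on chromosome 5 and AGPAT4 (0.129) on chromosome 6. NAPRT was most like 3 genes of chromosome 1, NFYC (0.107), MAP7D1 (0.119) and PPIH (0.120). For NNMT the closest were PGF (0.315), CD82 (0.362) and PIEZO2 (0.401). For NMNAT3 the closest were NLGN3 (0.266), TMEM171 (0.277) and USP18 (0.285). These differences are not scaled to a gene's own spread (profile SD), so they do not rank the genes by likeness. That spread was 1.13 for NNMT, 0.765 for NMNAT3, 0.641 for NMNAT1, 0.386 for NADK and 0.33 for NAPRT. NAMPT, NMRK1, SIRT1 and NADSYN1 varied less than the candidates had to, and their nearest genes (ITGA2 at 0.173, AMPD3 at 0.171, MT-ND1 at 0.197 and NUTM2E at 0.198) lay nearer than the gene's own spread for NAMPT (0.186) and NMRK1 (0.229) and farther than it for SIRT1 (0.132) and NADSYN1 (0.143).

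Of 37 further genes of NAD metabolism 32 were tested. In KO against WT 15 passed as higher and 8 as lower, where 72.7% of all genes passed (35.9% higher, 36.8% lower). Only the total is near the share of all genes, since the split leaned towards higher, which was not tested. By list, the calls were 2 higher and none lower of 4 tested kynurenine-route genes, 3 higher and 2 lower of 7 for salvage and uptake, and 3 higher and 1 lower of 5 for NADP and NAD(P)HX repair. They were 1 higher and 3 lower of 5 NAD hydrolases, 4 higher and none lower of 6 other sirtuins, and 2 higher and 2 lower of 5 poly-ADP-ribose polymerases. Over the 6 lists the median log2 fold changes ran from -0.54 for the hydrolases to 0.32 for the kynurenine route, where that of all genes was 0.01. NT5E, the ectonucleotidase CD73, which can cleave extracellular mononucleotides, averaged 320.3 ± 3.28 CPM in KO and 1149 ± 32.5 CPM in WT, a fall of 3.59-fold (adjusted p = 2.04e-18, edgeR). ENPP1, an ectoenzyme that hydrolyses extracellular nucleotides, averaged 163 ± 5.51 CPM in KO and 383 ± 18.4 CPM in WT, and AOX1, an aldehyde oxidase, 238 ± 10.8 CPM in KO and 116 ± 2.15 CPM in WT.

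Against KO, 6 of the 32 genes were higher and 12 lower with guanosine, where 56.5% of all genes passed (27.3% higher, 29.2% lower). The total is near that share, but the split leaned towards lower, which was not tested. The numbers higher and lower were 9 and 9 with unlocalised (50.8% of all genes), 10 and 13 with nuclear (53.0%) and 9 and 13 with cytosolic IMPDH2 (50.6%). NT5E rose in each of the 4, by 1.77-fold with cytosolic to 2.04-fold with unlocalised IMPDH2. PARP1, the main NAD-consuming polymerase of the DNA damage response, averaged 406 ± 0.822 CPM with guanosine and 271 ± 9.16 CPM in KO, and rose 1.30-fold to 1.39-fold with the 3 forms of IMPDH2. SIRT5, a mitochondrial deacylase gene, averaged 14.8 ± 0.674 CPM with guanosine and 27.2 ± 0.429 CPM in KO, and fell 1.43-fold to 1.49-fold with the 3 forms. Between nuclear and cytosolic IMPDH2, 9 genes were higher and 6 lower with the nuclear form, where 23.9% of all genes passed. NMNAT2, the cytosolic and Golgi adenylyltransferase gene, averaged 35.7 ± 0.969 CPM with nuclear and 25.2 ± 0.788 CPM with cytosolic IMPDH2, 1.42-fold higher (adjusted p = 7.5e-08, edgeR). ENPP1 was 1.42-fold lower and PNP, a purine nucleoside phosphorylase gene, 1.14-fold lower with the nuclear form.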

How the data were processed

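Messenger RNA was sequenced in 18 libraries, from 500 ng of total RNA with TruSeq stranded mRNA kits, per the labels. The deposited values for 252048 transcripts are estimated counts and TPM that the authors made with Salmon. Trim Galore 0.6.10, Salmon 1.10.0 and the build hg19 are named in the submitters' processing notes; positions here are from GENCODE 29 (GRCh38). The cell line field ends in a number that changes between samples, and 1 line was assumed from the growth protocol.

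Counts were summed to genes and rounded, since 32.5% of transcript values were not whole. CPM was computed here from the deposited counts with TMM-scaled library sizes; TPM was summed over transcripts. filterByExpr kept 19252 genes. All 18 libraries entered 1 edgeR 4.0.16 quasi-likelihood fit with a mean per group (R 4.3.3), with Benjamini-Hochberg adjustment over all genes of each of 11 comparisons and a threshold of 0.05. The SE is the absolute log2 fold change over the square root of F, and the biological coefficient of variation was 4.87%. NMNAT3, NMRK1 and NNMT rest on 15 to 148, 102 to 195 and 30 to 561 counts per library, which limits their precision; floors cover counting error only. Replicate libraries differed beyond counting noise, so none was merged. The fit was tested on simulated data. Alternatives were DESeq2 1.42.0 size factors and Wald test, no filter, a replicate block, only the 6 compared libraries, a transcript-length offset, coding transcripts alone, TPM for levels, and each library left out.

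The genes, lists and tests were chosen with earlier results of these data known. All 10 genes are reported; of the other lists, the 3 called genes with the smallest adjusted p in each of the 6 main comparisons are named. Likeness was taken over coding genes with a mean log2 CPM of at least 1 and a profile SD of at least 0.3. Tables were joined and plots drawn with pandas 2.3.3 and matplotlib 3.10.9 under Python 3.11.15. Reads were not analysed here.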

Additional observations from a re-analysis of the deposited data

How the results depend on the processing

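The 9 calls in KO against WT were made under every alternative except that NAMPT did not pass with coding transcripts alone, where it reversed to 0.091 (adjusted p = 0.0833). The offset for average transcript length lowered the calls to 1 in unlocalised IMPDH2 against KO, 1 in nuclear IMPDH2 against KO, 3 in cytosolic IMPDH2 against KO, 1 in nuclear against cytosolic IMPDH2 and 1 in guanosine against unlocalised IMPDH2; the cause was not tested. It also turned the log2 fold change of NNMT (guanosine against KO) to 0.183, NAMPT and NMNAT3 (nuclear against KO) to 0.069 and 0.085, NMNAT1 (cytosolic against KO) to 0.007, SIRT1 (nuclear against cytosolic) to 0.150, NAMPT (unlocalised against WT) to -0.117 and NADK (guanosine against unlocalised) to -0.286.

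Coding transcripts alone turned NMNAT3 to 0.124 (guanosine against KO), 0.021 (unlocalised against KO), 0.472 (nuclear against KO), 0.136 (cytosolic against KO) and 0.103 (guanosine against unlocalised). They turned NAPRT to -0.322 (unlocalised against KO) and -0.216 (cytosolic against KO), NMNAT1 to 0.007 (cytosolic against KO), NAMPT to 0.111 (cytosolic against WT, adjusted p = 0.0404) and NNMT to -0.449 (guanosine against unlocalised). NADSYN1 in unlocalised IMPDH2 against KO, near 0, turned to 0.011 with DESeq2 size factors and with the DESeq2 Wald test, 0.021 without the filter, 0.019 with coding transcripts and 0.007 with the 6 compared libraries.

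With 1 library left out, values near 0 changed sign. Against KO the ranges were -0.021 to 0.028 (NADSYN1), -0.040 to 0.159 (NMNAT1) and -0.259 to 0.004 (NMNAT3) for unlocalised, -0.005 to 0.025 (NADSYN1), -0.038 to 0.004 (NAMPT), -0.044 to 0.132 (NMNAT1) and -0.169 to 0.086 (NMNAT3) for nuclear, and -0.144 to 0.035 (NMNAT1) for cytosolic IMPDH2. They were 0.000 to 0.040 for NAMPT in unlocalised IMPDH2 against WT, -0.010 to 0.162 (NAPRT) and -0.067 to 0.006 (SIRT1) in nuclear against cytosolic IMPDH2, and -0.100 to 0.135 for NNMT in guanosine against unlocalised IMPDH2. None of these was called.

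Replicate numbers showed no general pairing of the samples. Over 45 pairs with the same number the correlation of deviations ran from -0.128 to 0.186 (median -0.018). Over 90 pairs with other numbers it ran from -0.164 to 0.111 (median 0.0095). Pairing between single groups cannot be judged from these ranges. With the replicate block NNMT in guanosine against KO missed the threshold (-0.334, adjusted p = 0.0579), which left 5 calls there, and no other call on these genes changed. QPRT failed the low-count filter, and its values without that filter rest on few counts.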
